A study of Schizosaccharomyces pombe with 8 samples.

Results

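The library labelled Rot1-Q472Stop was compared with the wild-type library, 1 library a side, over all 17962 elements of a table of small RNA levels in the fission yeast Schizosaccharomyces pombe. The series held 8 strains with 1 library each, and these 2 libraries of 8 are the ones described. The wild-type strain carries ade6-hp+, and the mutant strain carries Rot1-Q472Stop and ade6-hp+, so the ade6-hp construct was present on both sides. As far as the study is known, ade6-hp makes an RNA hairpin directed at ade6, a gene of adenine synthesis whose loss turns colonies red, and the study asked which mutants let such an RNA act on the gene. Both cultures were grown at 30 °C in the rich medium YES to an OD600 of 0.5, and RNA of 18 to 28 nt was cut from a gel and sequenced. Levels of the 6 other mutant strains are given as ranges beside some results; they are labelled Paf1 deletion, Leo1 deletion, Paf1-G104R, Cdc73-G313R, Leo1-W157Stop and Paf-1Q264Stop (written Paf1-Q264Stop in the plot), and each carries ade6-hp+ too. The labels do not say how many clones or cultures stand behind a library.

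In fission yeast, small interfering RNAs are cut by Dicer from double-stranded RNA, loaded into Argonaute, and guide the methylation of histone H3 to the chromatin they match. Pericentromeric repeats, telomere ends and the mating-type region are the known places where this pathway works in wild-type cells. The Paf1 complex travels with RNA polymerase II and is known to restrain small RNA-directed silencing elsewhere. Its subunits are encoded by paf1, leo1, cdc73, prf1 (the homologue of Rtf1) and tpr1 (the homologue of Ctr9).

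Levels are log2(n + 8). Here n stands for reads per base of the element after every library was brought to the same sum, so an element without reads sits at 3. Recovered reads summed to 6422498 in wild type and 1868618 in the library labelled Rot1-Q472Stop, and 1 read adds 2.58 times as much to the level of the second. An element entered the comparison where the higher of both levels was at least 5, and was called higher or lower at a difference of at least 1. Ratios compare n between the libraries, with the bounds of a 95% Clopper-Pearson interval in brackets; the bounds reflect counting error and nothing else. Where a library held no reads, the fold is set against 3 reads there, and it leaves out counting error in the other library. With 1 library a side there is no replicate check and no p-value. Where tRNA, rRNA or snoRNA genes lie opposite another element, their reads appear at that other element. Levels at a gene are therefore taken as largely antisense, an assumption that protein-coding genes gave no means to test.

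The label was examined first, because the rot1 gene of the reference encodes 232 residues and ends before the position that the label gives. The prf1 gene encodes 560 residues with glutamine at that position, and cdc73 encodes 371 residues. The codons are shown to place prf1, with glutamine at the labelled position, and cdc73, where small RNA was raised. They are on the coding strand of the RefSeq assembly, with the codon in capitals. The glutamine of prf1 is on the minus strand of chr2:1255859-1255891. A glycine of cdc73, at the position of the allele that labels another library, is on the minus strand of chr2:2170153-2170185.
prf1, glutamine codon: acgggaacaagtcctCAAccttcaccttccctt
cdc73, glycine codon: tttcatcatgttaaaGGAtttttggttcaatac

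Small RNA of the library labelled Rot1-Q472Stop was raised at cdc73, and no rise was detectable at prf1 or rot1. Over the cdc73 transcript without its UTRs, wild type held 8 reads at a level of 3.21 and the mutant library 149 reads at 6.08, a ratio of 48.0 (23.8 to 113). The 6 other mutant libraries held between 0 and 11 reads there. Over prf1 without its UTRs both libraries held 1 read, and over rot1 both held 1 read, so no difference was detectable at this depth (the interval of the ratio runs from 0.0329 to 202 for each). The library with many reads at prf1 was the one labelled Paf1-G104R, with 823. The library labelled Cdc73-G313R held 0 reads over cdc73 and 26 over paf1. More reads over paf1 were in the library labelled Paf-1Q264Stop, with 181.5. Over leo1 the library labelled Leo1-W157Stop held 519. The libraries labelled Paf-1Q264Stop and Leo1-W157Stop thus held the most reads of any library at the gene of their label. Those labelled Paf1-G104R, with 7 reads over paf1, and Cdc73-G313R did not. Of the other genes of the complex, paf1 had 7 reads in wild type and 4.5 in the mutant library, and tpr1 had 33 and 6.14. The leo1 transcript had 62 and 10 reads, a ratio of 0.416 (0.190 to 0.817). The raised gene of the complex is thus neither rot1 nor prf1. Which allele the strain carries was not tested, and the name "library labelled Rot1-Q472Stop" is kept for that reason.

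**Figure D1:**
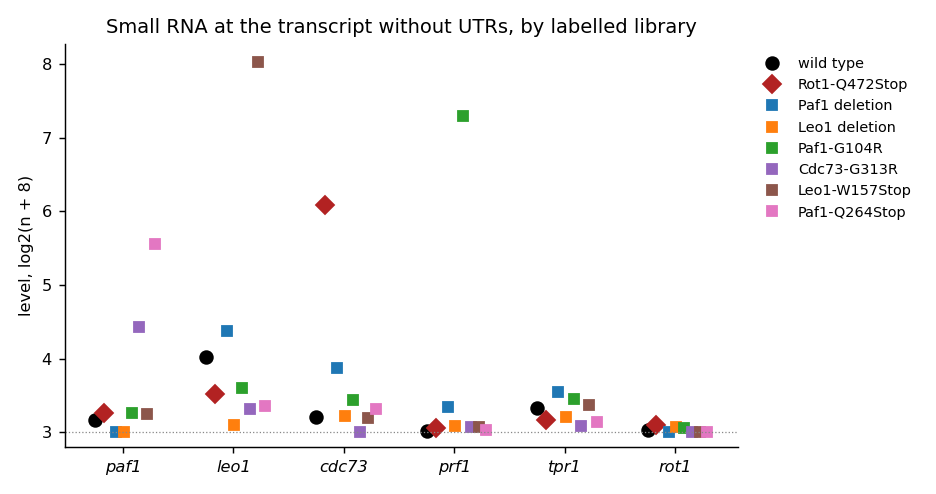
Level of small RNA, log2(n + 8), over the transcript without UTRs of the Paf1 complex genes and of rot1, 1 point per labelled library, with the floor at 3 as a dotted line. The library labelled Rot1-Q472Stop stands at 6.08 over cdc73 while the other 7 libraries lie at or below 3.88 there.

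The higher signal at cdc73 extended to krs1, and was mixed on the other side. The cdc73 5′ UTR went from 4.5 reads to 38 (levels 3.70 and 6.88) and its 3′ UTR from 6 reads to 13. The next gene on the same strand, krs1 (lysyl-tRNA synthetase), had 34 reads at 3.48 in wild type and 153 reads at 5.48 in the mutant library, a ratio of 11.6 (7.96 to 17.4). In the 6 other mutant libraries krs1 lay between 3.12 and 3.59, below its level in the library labelled Rot1-Q472Stop. On the other side, prp16, a splicing helicase gene convergent with cdc73, had 94 and 137 reads, with levels of 3.68 and 4.71 and a ratio of 3.76 (2.87 to 4.94). Its level of 4.71 is under the filter. Its 3′ UTR, which overlaps cdc73, was lower instead, with 79 and 11 reads and levels of 6.78 and 5.48. Beyond these genes nup85, a nuclear pore gene, was at 3.79 and 3.72, and pwp1, a ribosome assembly gene, at 3.10 and 3.82 with 6 and 24 reads.

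Over all elements, 2414 passed the filter, 13.4% of all. Of these 202 were higher (8.37%) and 634 lower (26.3%), and where the counting interval also had to leave out a ratio of 1, 173 (7.17%) and 552 (22.9%). The median difference of the elements past the filter was -0.39, and the counts of small differences depend on that shift. With the median set to 0, 332 elements were higher and 375 lower. Quantile normalization gave 268 and 322, and a total without structural RNA gave 316 and 341. The linear share of rRNA elements, their part of the sum of n, was 4.28% in wild type and 22.3% in the mutant library. Of the summed reads they held 0.333% and 2.28%, as n is per base and short elements weigh more in it. The part of the linear share in the shift was not tested apart from the rescaled total. List medians below are therefore to be read against -0.39. Differences of at least 2 were found for 85 elements higher and 135 lower, and of at least 5 for 6 higher and 11 lower.

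**Figure D2:**
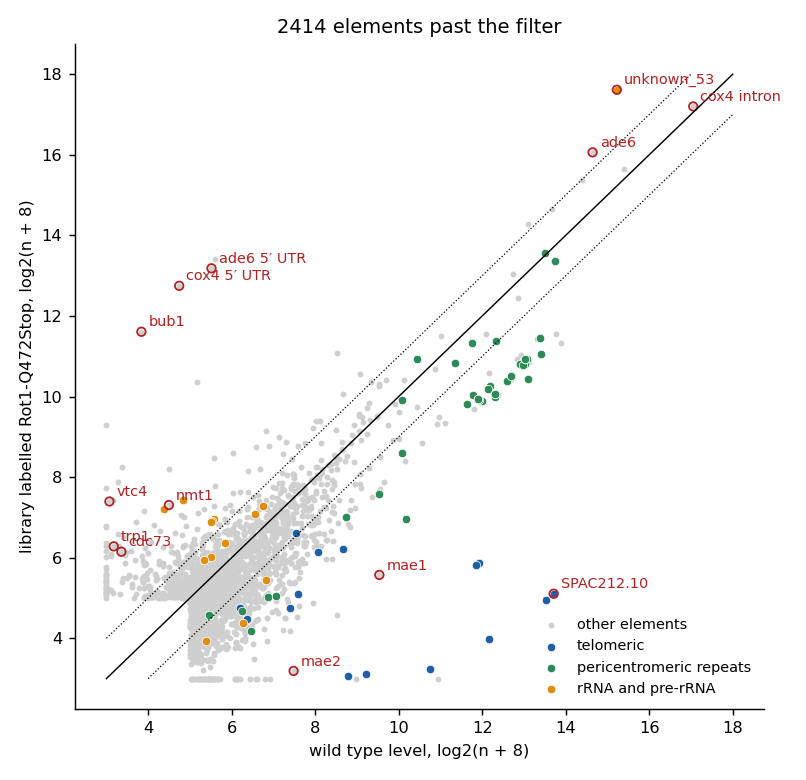
Level in the library labelled Rot1-Q472Stop against level in wild type, both log2(n + 8), for the 2414 elements past the filter, with equality as a solid line and differences of 1 as dotted lines. Of 16 telomeric elements 15 lie below the lines and 1 between the dotted ones. Most pericentromeric repeats lie about 2 below equality, and bub1, vtc4 and the 5′ UTRs of ade6 and cox4 far above.

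The 19 elements that were higher by at least 3 with at least 10 reads and an interval above 1 make up 0.787% of those past the filter. They lay in 5 stretches of the genome: around ade6, cox4, nmt1, trp1 and cdc73. The stretches were chosen after the values were seen.

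Around ade6 on chromosome 3 the ade6 sequence was already covered in wild type, and the neighbouring genes were not. Both strains carry the ade6-hp construct, and its reads cannot be told apart here from those of the gene. The ade6 transcript (1316243 to 1318070) held 237290 reads at 14.64 in wild type and 245645 reads at 16.06 in the mutant library, a ratio of 2.67 (2.65 to 2.68). Quantile normalization lowered this difference from 1.42 to 0.39. Its 5′ UTR held 18 reads at 5.52 in wild type and 1717 reads at 13.18 in the mutant library, a ratio of 246 (155 to 416). The 3′ UTR stood at 9.23 and 9.07, a ratio of 0.894 (0.682 to 1.16). The 2 ends of the transcript thus differed: the 5′ UTR was far higher in the mutant library, and at the 3′ UTR the interval holds a ratio of 1.

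The neighbour bub1, a spindle checkpoint kinase gene transcribed away from ade6, held 110 reads at 3.84 in wild type and 21098 reads at 11.61 in the mutant library. That is a ratio of 495 (410 to 602), and bub1 had the largest difference among protein-coding transcripts, 7.77. Within bub1 the 5′ UTR, next to ade6, held 15 and 1564 reads (5.60 and 13.41) and the 3′ UTR, farthest from ade6, 3 and 39 reads (3.39 and 6.51). The next gene outward, the ribosomal protein gene rpl2302, had 6 and 34.5 reads, with levels of 3.24 and 4.89. The level in the mutant library thus fell with distance from ade6 on this side.

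On the other side of ade6, vtc4, which encodes a polyphosphate polymerase subunit, held 6 reads at 3.07 and 915 reads at 7.40, a ratio of 393 (180 to 1074). Beyond it the ribosomal protein gene rpl3402 had 8 and 28.5 reads, with levels of 3.31 and 4.67. For the genes after that the intervals hold a ratio of 1: phb2, a prohibitin gene, had levels of 3.48 and 3.37, and rqc2, a gene of ribosome quality control, 3.34 and 3.34. In the 6 other mutant libraries bub1 lay between 6.93 and 13.57 and vtc4 between 3.96 and 9.83, so the library labelled Rot1-Q472Stop lay within their range.

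The cox4 transcript, which encodes a subunit of cytochrome c oxidase, showed the contrast of an intron that hardly moved inside exons that did. The intron of 355 nt (chromosome 1, 711413 to 711767) held 244916 reads at 17.05 in wild type, the highest level of that library. In the mutant library it held 105080 reads at 17.20, a ratio of 1.11. Whether the ade6-hp construct adds reads at this intron was not tested, as the labels do not give its sequence. The ends of the intron are printed because the signal changes at these borders. They are on the plus strand, chr1:711413-711532 and chr1:711708-711767, with the first and last 2 bases of the intron in capitals.
cox4 intron, start: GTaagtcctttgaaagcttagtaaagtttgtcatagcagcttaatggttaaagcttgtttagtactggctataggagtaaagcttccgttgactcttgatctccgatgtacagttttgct
cox4 intron, end: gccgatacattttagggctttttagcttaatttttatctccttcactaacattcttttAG

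The cox4 exons without UTRs held 190 reads at 6.39 in wild type and 6681 reads at 12.75 in the mutant library, a ratio of 90.7 (78.5 to 105). Its 5′ UTR had 6 and 851 reads, levels of 4.74 and 12.75, the largest rise of the table at 8.0. Its 3′ UTR had 29 and 527 reads, levels of 5.17 and 10.37. Both flanking genes were higher too. SPAC1296.01c, upstream on the other strand, had 1 and 142 reads with levels of 3.01 and 5.24, a ratio of 366 (64.7 to 14565) that rests on a single wild-type read. The 343 nt listed as its longer 5′ UTR held 0 and 50 reads, 43.0-fold higher when set against 3 reads in wild type. The carboxypeptidase gene sxa2, downstream, had 65 and 489 reads, levels of 3.90 and 7.15 and a ratio of 19.4 (15 to 25.5). The next genes outward differed little: mug65 was at 3.30 and 3.31, lcp1 at 4.16 and 3.83 and rdh54 at 3.68 and 3.50. For the cox4 exons the 6 other mutant libraries lay between 6.34 and 11.83, all below the library labelled Rot1-Q472Stop.

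Around nmt1 on chromosome 3, a gene of thiamine synthesis that is off in thiamine and strongly transcribed without it, many elements were higher and the 2 most covered ones were not. The nmt1 transcript had 88 reads at 4.50 in wild type and 352 reads at 7.31 in the mutant library, a ratio of 10.3 (8.15 to 13.2). SPNCRNA.10, a non-coding RNA across its start, had 6 and 307 reads with levels of 3.28 and 7.87, a ratio of 132 (59.9 to 362). The ubiquitin ligase gene hel2, next to it, had 28 and 394 reads with levels of 3.31 and 6.28. Its 5′ UTR of 14 nt held 0 and 17 reads, 14.6-fold higher when set against 3 reads in wild type. The RNA polymerase I factor gene spp27 had 34 and 263 reads with levels of 3.46 and 6.07, and SPNCRNA.1233, opposite its start, 50 and 213 reads with levels of 4.13 and 6.82. The mismatch repair gene msh6 beyond them stood at 3.48 and 4.29.

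SPNCRNA.504, downstream of nmt1, was at 9.90 and 9.82, and SPNCRNA.1234, antisense across nmt1, was lower, at 9.29 and 8.22 with 8155 and 1482 reads. The glycerol-3-phosphate dehydrogenase gene gut2 was at 4.03 and 4.25, a ratio of 1.33 (0.958 to 1.84). Farther on, the methyltransferase gene set11 had 4 and 33 reads. The ribosomal protein gene rpl3702 had 0 and 41.5 reads, 36.1-fold higher when set against 3 reads in wild type. Of the thiamine genes, 6 of the 7 listed were in the table and 2 passed the filter. Of these nmt1 was higher and thi4 differed by -0.36.

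Near trp1 on chromosome 2, a gene of tryptophan synthesis, the gene itself held 12 reads in wild type, with a level of 3.18 there and 6.28 in the mutant library, a ratio of 67.3 (38 to 132). Next to it nop16, a ribosome assembly gene, had 9 and 187 reads with levels of 3.27 and 6.58. Of these, 3 and 144 reads lay in its 5′ UTR. On the other side arf6, a GTPase gene, stood at 5.48 and 5.11 and acb1 was lower, at 5.97 and 4.64. Farther along on the side of arf6 the tts1 transcript had 28 and 69.5 reads, with levels of 3.54 and 4.96, while cog3 and fmd1 between them were at 3.12 and 3.10 and at 4.60 and 4.40. Beyond nop16 the gene chr4 was at 3.70 and 4.20. The trp1 level of 6.28 lay within the range of the 6 other mutant libraries, 3.40 to 6.69.

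**Figure D3:**
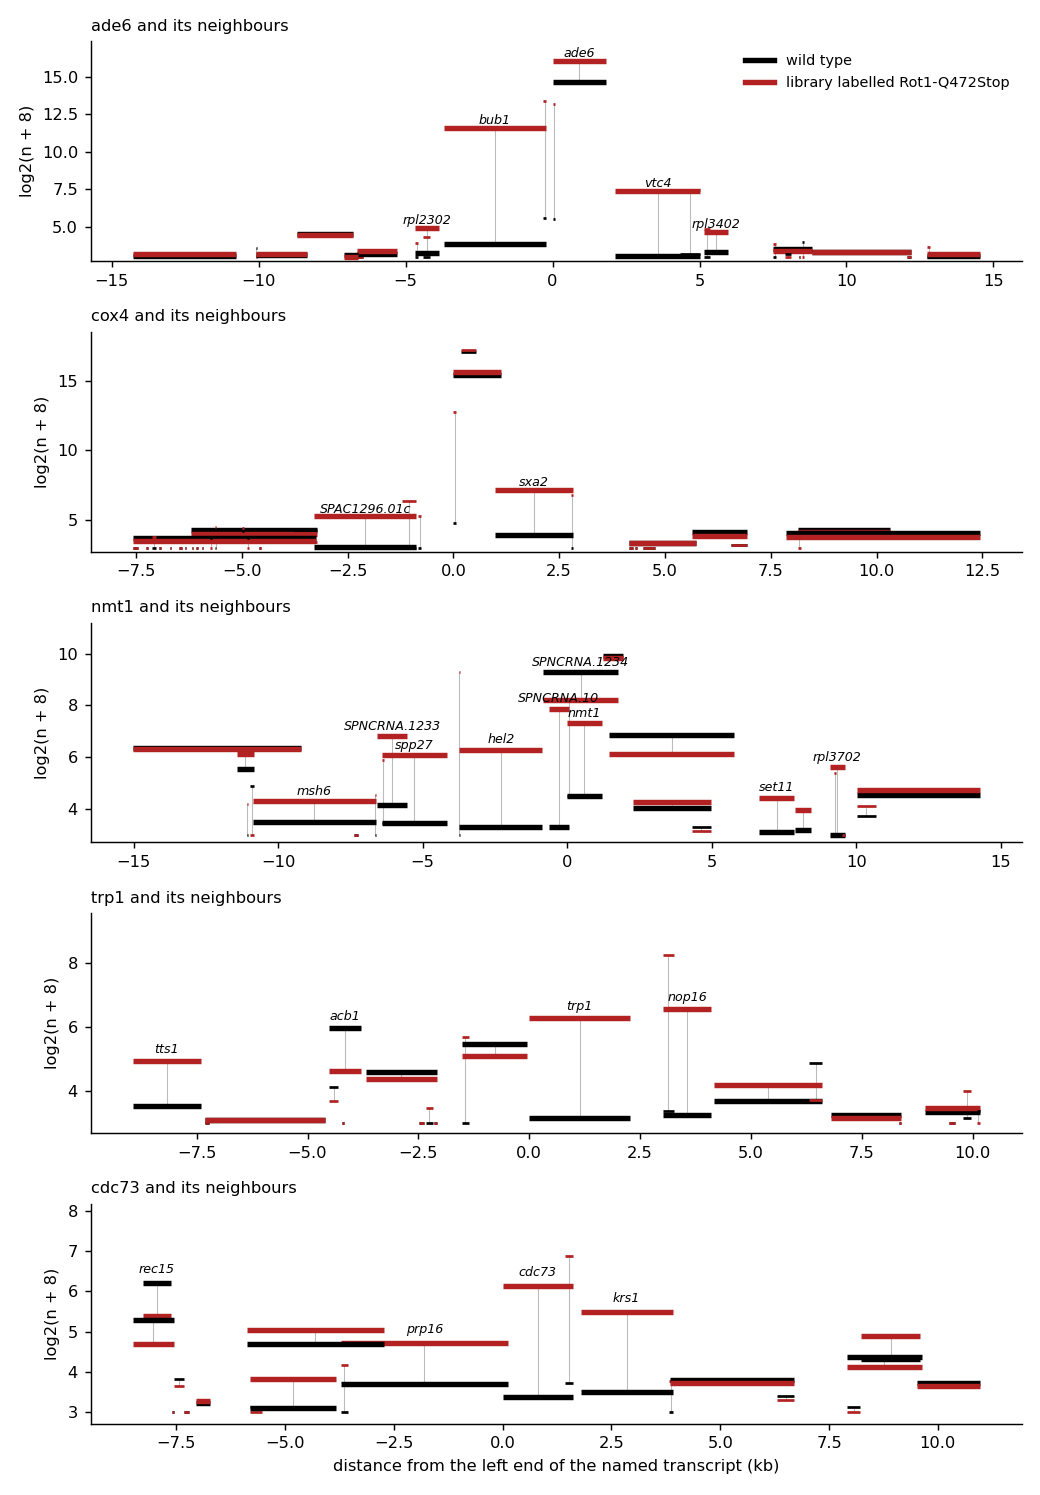
Levels, log2(n + 8), of transcripts and non-coding RNAs (thick lines) and of 5′ UTRs and introns (thin lines) against distance in kb from the left end of ade6, cox4, nmt1, trp1 and cdc73, in wild type (black) and in the library labelled Rot1-Q472Stop (red). Names are given for transcripts and non-coding RNAs at the larger differences; red lies far above black at bub1, vtc4, sxa2, hel2, trp1, nop16, cdc73 and krs1, and below it at SPNCRNA.1234, acb1 and rec15.

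The largest falls were at the chromosome ends. Of 27 telomeric elements 16 passed the filter and 15 were lower (background 26.3%), with none higher and a median of -5.88. Near-copies such as SPAC212.10 and SPBCPT2R1.10, described below, are among them, so the 15 are not separate measurements. Over all 27 the median was -1.88, with 22 below 0 and 4 above. The telomeric share of the linear total was 4.76% in wild type and 0.0516% in the mutant library. Of the summed reads it was 5.84% and 0.110%. The count of 15 was the same with the median set to 0, under quantile normalization and with a total without structural RNA.

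SPAC212.10, a pseudogene near the left end of chromosome 1 (5726 to 6331), had the largest fall of the table. It held 41211 reads at 13.71 in wild type and 31.5 reads at 5.11 in the mutant library, a level 499-fold lower (354 to 730). SPBCPT2R1.10, near the right end of chromosome 2, had 39549 and 30 reads and differed by -8.57. These are not separate measurements: over 597 aligned bases 596 are identical, and a stretch of 150 nt from SPAC212.10 occurs 2 times in the 3 chromosomes. That stretch is printed as sequence of the element with the largest difference, on the minus strand of chr1:6082-6231, with no base marked.
SPAC212.10, stretch: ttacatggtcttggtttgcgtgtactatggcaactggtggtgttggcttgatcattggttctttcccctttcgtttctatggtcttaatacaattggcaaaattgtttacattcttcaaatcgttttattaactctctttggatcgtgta

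The telomere-linked helicase genes tlh1 and tlh2, which carry sequence of the pericentromeric repeats, were lower by less. The tlh1 transcript had 111899 reads at 11.93 and 565 reads at 5.88, 76.8-fold lower (70.7 to 83.6), and tlh2 had 111860 and 567 reads. Near them the pseudogenes SPAC212.09c and SPBCPT2R1.07c both held 4.92 reads in the mutant library, against 14377 and 14721 in wild type, each a difference of -7.50. The repeat unknown_1 beside SPAC212.10 (chromosome 1, 6360 to 6755) had 9211 and 6 reads and differed by -8.19. SPAC750.08c at the right end of chromosome 1 went from 8.80 to 3.08. In the 6 other mutant libraries SPAC212.10 lay between 6.41 and 9.07, all above the library labelled Rot1-Q472Stop and below wild type. The tlh1 range in them was 5.66 to 10.01.

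Within 20 kb of the ends of chromosomes 1 and 2, 15 elements passed the filter, of which 14 were lower and 0 higher. Within 100 kb it was 30, 20 and 5. The background over all elements is 26.3% lower and 8.37% higher. Of 113 subtelomeric elements none reached level 5 in wild type and 2 did in the mutant library, so passing the filter here implied a higher value. Over all 113 the median was 0, with 53 above 0 and 35 below. The 2 that passed, both higher, were SPAC750.01, with 3.5 and 60 reads, and the repeat unknown_223 that overlaps it. In the same direction, the repeat unknown_16 near the left end of chromosome 1 (59604 to 60792) had 4 and 142 reads, with levels of 3.11 and 6.10.

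Of the pericentromeric repeats 48 of 53 passed the filter and 40 were lower (83.3%, background 26.3%), with none higher and a median of -1.96. All 14 centromeric non-coding RNAs past the filter, of 26 listed, were lower (background 26.3%), with a median of -2.14. Quantile normalization left 13 and 7 of these calls, and put 2 repeats higher. The linear share of the repeats was 24.3% in wild type and 8.18% in the mutant library. Of the summed reads they held 51.1% and 29.8%.

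Most outer repeats of the arrays were lower by about 2, and the repeats that flank or form the middle differed by less. On chromosome 1 the repeats unknown_144, unknown_146, unknown_147, unknown_152 and unknown_153 differed by -2.25, -2.11, -1.92, -2.18 and -1.96. The 2 repeats that flank the middle, unknown_148 and unknown_150, differed by -0.94 and -0.52, and the middle itself, unknown_149, held 2.5 and 1.5 reads. In fission yeast the middle of a centromere is the site of kinetochore assembly and carries little heterochromatin.

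Part of unknown_150 is also listed as unknown_151, its outer end, which differed by -2.31. The remainder, 3773196 to 3777114, held 30584 reads at 10.59 in wild type and 16747 reads at 11.09 in the mutant library, a ratio of 1.41 (1.39 to 1.44). A lower outer end and a higher inner part thus meet within 1 listed repeat. The tRNA gene SPATRNAILE.04 (3773910 to 3773983, minus strand) lies opposite the inner part. Reads of that gene may be counted there, and their share was not tested.

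On chromosome 2 the repeats beside the middle were unknown_70, at -1.48, and unknown_73, at 0.51 with 30121 and 16677 reads (levels of 10.43 and 10.94). On chromosome 3 the 3 adjoining repeats unknown_77, unknown_80 and unknown_81 differed by 0.06, -0.43 and -0.15, while the 25 others past the filter differed by between -3.21 and -0.88. Other outer repeats departed from this size too: on chromosome 2 unknown_62 differed by -2.66, and unknown_78 by -0.38, from 13.74 to 13.36. The tRNA genes SPBTRNALEU.07 and SPBTRNAVAL.06 lie opposite unknown_78 and unknown_70, and the share of tRNA reads there was not tested. On chromosome 3 unknown_64 had the largest fall, -3.21, with 7558 and 298 reads, and unknown_70 the smallest of those 25, -0.88. The division into middle and outer repeats was made after the values were seen, and on chromosome 3 these 3 repeats lie to the left of the midpoint of the listed array.

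**Figure D4:**
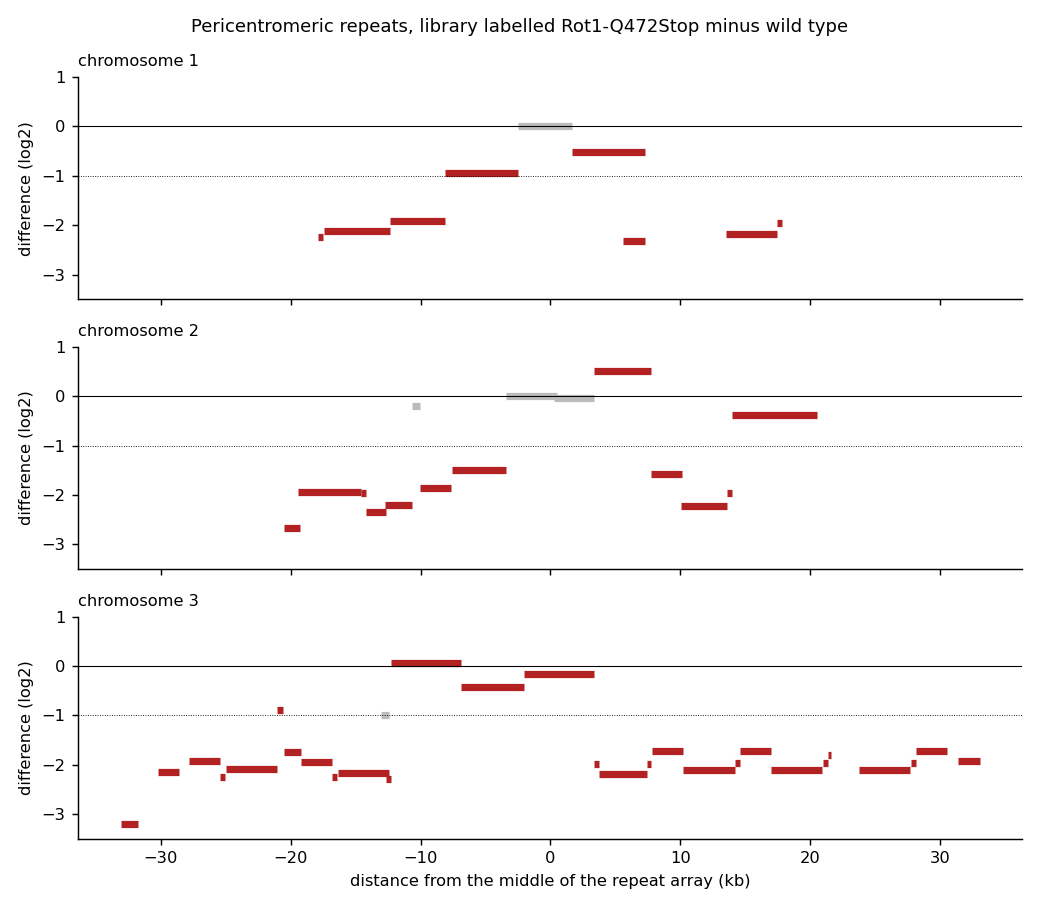
Difference between the library labelled Rot1-Q472Stop and wild type (log2) for the pericentromeric repeats of each chromosome against distance in kb from the middle of the array, as lines as long as the repeat, in red where the repeat passed the filter. The repeats named in the text as flanking or forming the middle lie between -1.48 and 0.51, on chromosome 3 mostly left of 0, and most others lie near -2.

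Repeat copies share reads. The 53 repeats have 44 distinct pairs of read numbers, and 6 elements of 391 nt with 1 sequence all show 7558 and 746 reads. The first 150 bases of that repeat are printed because they stand for the level of 6 elements, from unknown_153 on the plus strand of chr1:3789031-3789180, with no base marked. The whole repeat of 391 nt has 10 exact copies in the 3 chromosomes.
unknown_153, first bases: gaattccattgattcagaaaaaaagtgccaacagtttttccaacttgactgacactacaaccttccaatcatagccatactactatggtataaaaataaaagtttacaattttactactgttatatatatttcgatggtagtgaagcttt

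Among the non-coding RNAs of the centromeres, SPNCRNA.371 had the largest difference, -2.55, with levels of 13.89 and 11.33 and 29509 and 1944 reads. SPNCRNA.232 went from 13.76 to 11.55 and nam5 from 13.12 to 10.87. The boundary elements IRC1-L and IRC1-R, which border the repeats of chromosome 1, differed by -1.91 and -1.90. The tRNA elements among the repeats behaved otherwise: of 27 listed 16 passed the filter and 1 was lower (6.25%, background 26.3%), SPCTRNALYS.10 at -2.77. The median was 0.10. Reads of tRNA genes appear at elements opposite them, so these values need not be reads of the tRNA genes themselves. SPCTRNALYS.10 held 61.7 and 2.39 reads, the most of them in wild type. Of the 16 tRNA elements past the filter, 12 reached level 5 in wild type. Coverage was thin and some members share reads. SPATRNAILE.03 and SPATRNAILE.04 show the same 16.9 and 7.1 reads, with a ratio of 1.06 (0.372 to 2.69).

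Both genes of malate use in the lists were far lower. The mae1 gene, which encodes the malate transporter, held 6264 reads at 9.89 over its body in wild type and 16 reads at 3.83 in the mutant library, 152-fold lower (93.4 to 266). Its 5′ UTR held 593 reads in wild type and 0 in the mutant library, 76.6-fold lower when 3 reads are set there. Its 3′ UTR did not follow, with levels of 7.17 and 7.01. The malic enzyme gene mae2 went from 1803 reads at 7.48 to 4.58 reads at 3.19, a difference of -4.29. No other transcript within 8 kb of mae1 or of mae2 differed by 1 or more. In the 6 other mutant libraries the mae1 body lay between 3.88 and 6.71, with the library labelled Rot1-Q472Stop, at 3.83, below the lowest of them.

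Of the genes of RNA interference and heterochromatin, few had small RNA to compare. None of 12 RNAi genes passed the filter. Of 12 heterochromatin genes epe1 passed, whose product opposes heterochromatin spreading. It went from 1213 reads at 6.09 to 147 reads at 4.74, a difference of -1.35 that became -0.96 with the median set to 0 and so lost its call. None of the 9 genes of RNA elimination and meiosis found in the table passed. Of 10 termination genes pcf11 passed and differed by 0.27.

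The alcohol dehydrogenase gene adh1 was the 1 gene of 18 in glycolysis and fermentation that passed the filter. Its transcript went from 2516 reads at 7.24 to 2558 reads at 8.58, a ratio of 2.62 (2.48 to 2.77). Of these reads 2358 and 2217 lay in its long 5′ UTR. Over the transcript without UTRs it was 39 and 206 reads, a ratio of 13.6 (9.64 to 19.7). Of 131 ribosomal protein genes 11 passed, with rpl3702 and rps7 higher and rpl3001 and rps3002 lower (18.2% each, background 8.37% and 26.3%). With the median set to 0, 3 of them were higher and none lower. Of 4 phosphate genes vtc4 passed, and of 8 heat shock genes hsp3102, which lies opposite rRNA and differed by 0.99.

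Among transcripts of protein-coding genes 424 of 5042 passed the filter, 36 higher (8.49%, against 8.37% over all elements) and 66 lower (15.6%, against 26.3%). The median was -0.25, above that of all elements. With the median set to 0 the counts were 54 and 22, so that lower transcripts outnumbered higher ones in 1 scaling and not in the other. After mae2 and mae1 the largest falls were at lam3, with 65 and 1 reads, mug84, with 138 and 5, and pom34, a nuclear pore gene, with 258 and 19.2. In mug84 135 and 2 of these reads lay in the 3′ UTR.

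Of the 3′ UTRs 1288 of 4760 passed the filter, 57 higher (4.43%, background 8.37%) and 30.4% lower (background 26.3%), with a median of -0.57. With the median set to 0 it was 112 higher and 222 lower. Where the 3′ UTR overlapped a transcript on the other strand by at least 20 nt, the median was -0.39 over 895 elements, with 223 lower (24.9%). Where it did not, the median was -0.85 over 393 elements, with 169 lower (43.0%). The order depends on the filter: of the 393, 366 reached level 5 in wild type and 206 in the mutant library. Over all members whatever their level, the medians were -0.216 with such an overlap and -0.096 without. Where the mean of both levels had to reach 5, they were -0.33 and -0.72. The largest falls with at least 10 reads were at the 3′ UTRs of sgo1, SPAC11D3.14c and nup131. That of sgo1, listed with 10 nt, had 25 and 0 reads (3.23-fold lower when 3 reads are set there). That of SPAC11D3.14c had 235 and 4 reads, and that of nup131 12 and 0 reads (1.55-fold lower by the same rule). The most covered 3′ UTR, that of dal81, which lies opposite a tRNA gene, went from 12.75 to 13.03.

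Of the 4828 5′ UTRs 60 of those past the filter were higher (40.3%, background 8.37%) and 34 lower (22.8%), with a median of 0.44. The higher ones were short and thin, with a median length of 82 nt and a median of 7 reads in the better covered library. Where the mean of both levels had to reach 5, 16 were higher and 15 lower of 65, against 113 and 405 of 1798 over all elements. Where the wild-type level had to reach 5, 6 were higher and 34 lower of 79, against 57 and 634 of 2078 over all elements. The number of higher 5′ UTRs thus depended on the filter, as did that of higher elements of all classes. Of 39 introns past the filter 2 were higher (5.13%, background 8.37%) and 18 lower (46.2%, background 26.3%). Where the counting interval also had to leave out 1, 8 remained lower (22.9% over all elements by that rule). The lsm6 intron went from 165 reads at 9.36 to 17 reads at 7.50, and the rec12 intron from 41 reads to 1.

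The rRNA elements held a larger part of the linear total and of the summed reads in the mutant library, as given above. Of 48 rRNA elements 15 passed the filter, 7 higher (46.7%, background 8.37%) and 3 lower (20%, background 26.3%). Where the wild-type level had to reach 5, 1 was higher and 3 lower of 9, against 57 and 634 of 2078 over all elements. Where the mean of both levels had to reach 5, it was 7 and 2 of 14, against 113 and 405 of 1798. The number of higher rRNA elements thus depended on the filter. The element unknown_53 of 98 nt on chromosome 3 (814799 to 814896) had the highest level of the library, 17.61 with 38666 reads, against 15.22 with 19030 reads in wild type. In the 6 other mutant libraries it lay between 16.22 and 19.05. It held most of the share of rRNA and is printed for that reason, on its listed strand, the minus strand, with no base marked. Its other strand equals the sense strand of the annotated rRNA SPRRNA.47 at 93 of 98 bases.
unknown_53, listed strand: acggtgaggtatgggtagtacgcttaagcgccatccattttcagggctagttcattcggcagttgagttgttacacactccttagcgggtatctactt

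The 3 elements of 3485 nt of rRNA near the ends of chromosome 3, which share their reads, went from 226 reads at 4.38 to 958 reads at 7.21. Of the pre-rRNA elements 3 of 5 were higher (60%, background 8.37%), with a median of 1.39 over the 5. Of 143 tRNA elements outside the centromeres 53 passed the filter, 2 higher (3.77%) and 18 lower (34.0%, background 26.3%). Their median of -0.50 is close to that of all elements, and with that median set to 0 the counts were 8 and 12. Of 18 snoRNA elements past the filter 4 were higher and 4 lower (22.2% each, background 8.37% and 26.3%). They ran from sno16 at -2.30 to snR41 at 2.28. By the strand reading given above, values at rRNA, tRNA and snoRNA elements need not be reads of those genes themselves.

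**Figure D5:**
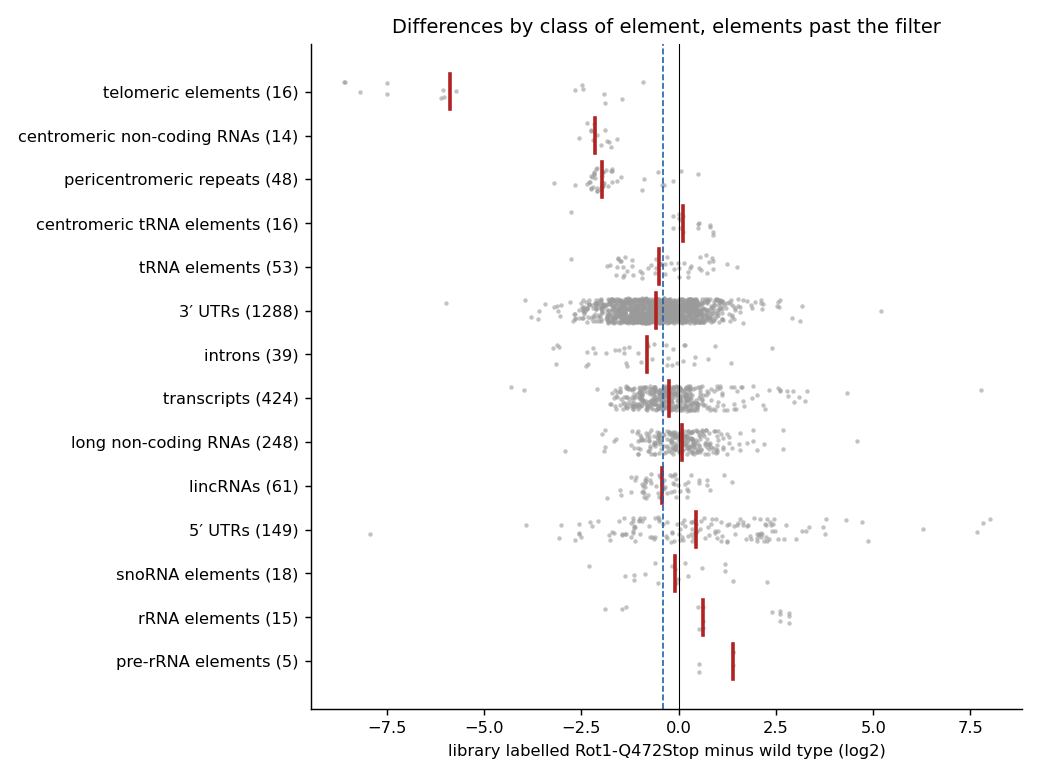
Differences (log2) of all elements past the filter by class, 1 grey point per element with the class median as a red line, the number of elements in brackets and the median of all elements, -0.39, as a dashed line. The medians of telomeric elements, pericentromeric repeats and centromeric non-coding RNAs lie far to the left of the dashed line, and those of centromeric tRNA, 5′ UTRs, rRNA and pre-rRNA to its right.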

How the data were processed

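The authors deposited 1 table of log2 levels for 17962 elements in 8 libraries. Per the submitters' processing notes, CASAVA 1.8 and Bowtie 0.9.9.1 were used; the sources used here do not give the build, the annotation or the way reads were assigned. Every library has its lowest value at 3 and a linear total of 907489 after removal of 8, so levels are log2(n + 8). The value of 1 read was found by least squares on low multiples, and 84.3% of elements above 0 in wild type and 83.0% in the library labelled Rot1-Q472Stop then came out as whole reads within 0.05. Fractions were rounded for intervals only. No count model was used. Reads were PCR copies with no molecular identifiers, and intervals therefore hold counting error alone.

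The largest element ends equal the 3 chromosome lengths of the RefSeq assembly (5579133, 4539804 and 2452883), from which sequences were read. Of 7023 gene elements 6808 were found in its gene table, which gave the symbols. The 7 elements that share 40 nt or more with a tRNA gene of the other strand held 7777 reads in wild type as their median, against 50.8 for elements that share its strand. Transcripts without UTRs were obtained by subtracting the reads and lengths of the listed UTRs.

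The rule for naming took all members of the Paf1 complex, ade6, nmt1 and cox4 lists, up to 5 members per direction and by level in other lists, and 15 elements per direction over all elements with at least 10 reads. Elements taken by the rule that repeat a neighbour already described are left out of the text. Neighbours below the filter, the remainder of unknown_150 and the overlap classes of 3′ UTRs were added after the values were seen. Members and lists were chosen with earlier results of these data known. Python 3.11.15, numpy 2.4.6, pandas 2.3.3, scipy 1.17.1, matplotlib 3.10.9 and Biopython 1.88 were used, and the calculations were tested on simulated data. Alternatives of scaling, pseudocount, filter, threshold and overlap are given in the closing section.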

Additional observations from a re-analysis of the deposited data

How the results depend on the processing

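No paired analysis was possible because each strain has 1 library. For the same reason leaving out a replicate was not possible. Of 97 recomputed values 58 stayed within 1.5 times the reported count or within the counting interval of the reported difference, and no value changed sign. The 15 telomeric elements stayed within 1.5 times under all 11 alternatives. The others moved as follows; the cause was not tested unless the alternative itself removes elements.

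With the median set to 0, 332 elements were higher and 375 lower, and 22 transcripts lower; ade6 differed by 1.81, bub1 by 8.16 and nmt1 by 3.20. Quantile normalization gave 322 lower elements, 13 lower repeats, 7 lower centromeric non-coding RNAs, 19 lower transcripts, and differences of 0.39 at ade6 and 8.74 at bub1. A total without structural RNA gave 316 and 341 elements, 17 lower transcripts and 1.86 at ade6. A pseudocount of 1 gave 101 lower transcripts, 8.74 at bub1, 3.28 at nmt1 and 4.76 at cdc73. A filter at level 4 gave 411 higher elements. At level 6 it was 114 higher and 372 lower, with 23 higher and 19 lower transcripts. With the filter on wild type alone, 57 elements and 11 transcripts were higher. A mean level of 5 gave 113 and 405 elements, with 23 and 31 transcripts. A difference of 2 gave 85 and 135 elements, 19 repeats, 8 non-coding RNAs, and 16 and 3 transcripts. Taking 1 element per overlapping set gave 22 repeats and 5 non-coding RNAs. Depth limits genes of few reads: at prf1 and rot1, with 1 read in each library, a difference was not detectable.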

Other observations

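Of the 248 long non-coding RNAs past the filter, those around nmt1 included, 22 were higher (8.87%, background 8.37%) and 18 lower (7.26%, background 26.3%), with a median of 0.09. With the median of all elements set to 0, it was 50 and 7. At the gto1 locus near the right end of chromosome 1 both strands differed in opposite directions. SPNCRNA.276 on the minus strand (5474747 to 5475378) went from 341.5 reads at 6.84 to 9 reads at 3.93, 14.7-fold lower. The 5′ UTR of gto1 overlaps it on the same strand and went from 281.5 reads to 8. SPNCRNA.1087, which overlaps both on the plus strand, went from 59 reads at 3.55 to 244 reads at 5.58. The lower and the higher values thus belong to elements that overlap on opposite strands.

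Elsewhere, SPNCRNA.1374 on chromosome 2 (608000 to 611638) went from 56 reads at 3.46 to 448 reads at 6.14. In the 6 other mutant libraries it lay between 4.56 and 5.59, below the library labelled Rot1-Q472Stop. SPNCRNA.1601, also on chromosome 2, went from 82 reads at 3.84 to 287.5 reads at 6.03, against 4.20 to 5.95 in the others. Of 61 lincRNAs past the filter 2 were higher and 7 lower, shares below the background of 8.37% and 26.3%. Among transposon elements 1 of 27 Tf2 elements passed the filter, with a difference of 0.43. Of 221 LTR elements 7 passed, with 3 lower (42.9%, background 26.3%). With the median of all elements set to 0, 1 LTR element was lower. None of 28 wtf genes and neither of the mat2 and mat3 genes passed.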
